A study of Drosophila melanogaster with 9 samples.

Results

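The linear actin and myosin II machinery was examined through 10 genes, namely dia, ena, cpa, cpb, chic, tsr, Rho1, zip, sqh and Mlc-c. They were chosen by name with earlier results of these data known, so their counts beside shares of all genes are not tests. Of these 10 genes, 7 had a probe set in the probe table used, and 3 (Rho1, zip and sqh) were not analysed here. The 7 were part of 11982 genes tested, and each had 1 probe set. They lie on chromosome arm 2L (dia, cpb and chic), on 2R (ena, cpa and tsr) and on X (Mlc-c). The probe sets of dia and chic are of a type that can match transcripts of several genes.

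RNA was measured on 9 Affymetrix arrays of cells sorted by flow cytometry from the wing imaginal disc (the epithelial primordium of the adult wing) of w1118 background larvae about 8 days old. All larvae carried the en-gal4 driver, which acts in posterior compartment cells, with p35 (a viral caspase inhibitor), an asp double-stranded RNA (asp encodes a spindle pole protein) and UAS-RFP under it, and an MMP1-GFP reporter. Anterior cells lacked RFP and GFP, so they came from the same discs but not from the cells of the driver. Posterior cells carried RFP without GFP, and delaminating cells carried both. Each population had 3 biological replicates, and no population without the transgenes was part of the comparison. The values were log2 signals normalised by RMA, a method that corrects background, equalises the arrays and summarises the probes of a set.

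Actin filaments grow mainly at their barbed end. There formins such as Diaphanous and the processive elongator Enabled add monomers that profilin delivers, and capping protein stops growth. Cofilin severs filaments and frees monomers. Non-muscle myosin II, built of heavy chains, regulatory light chains and essential light chains, pulls on these filaments. In epithelia such as the wing disc this machinery sets cell shape, junctional tension and the ability of cells to leave the sheet.

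The arrays and labels were checked first. The posterior selector gene en had log2 signals from 6.88 to 7.49 on anterior arrays and from 10.01 to 11.03 on the other 6 arrays, and the anterior gene ci ran the other way. The posterior genes inv and hh ran like en. The other anterior gene checked, ptc, differed less, at 11.92 to 12.02 on anterior and 10.88 to 11.71 on the other 6 arrays. Its posterior minus anterior difference was -0.40 (limma adjusted p = 0.531). nub and vg, which mark the wing pouch, lay above 11 on all 9 arrays, but the epithelial markers were not even across populations. In delaminating minus posterior nub differed by -0.63 (limma adjusted p = 0.356) and vg by -0.08. Of the 7 measured epithelial markers 3 were apart with delaminating lower and 1 with delaminating higher. Their median was -0.08, and limma called 0. Anterior replicate 3 stood apart, with correlations of 0.889 to 0.915 with the other arrays, against 0.943 to 0.987 among those 8. Delaminating replicate 2 had the highest value of all arrays for 13 of 15 measured hemocyte (larval blood cell) markers. The log2 of their summed signal was 14.36 on that array, 13.01 and 12.84 on the other delaminating arrays, 12.39 to 12.90 on posterior and 13.17 to 13.67 on anterior arrays. The defining hemocyte factor gene srp lay at 7.35 on delaminating 2 and between 3.30 and 5.04 elsewhere, below the lower quartiles of the arrays, which were 6.05 to 6.36. In sorted bulk samples, a different number of cells of a type and a different amount of RNA per cell cannot be told apart.

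Delaminating cells had the highest signal of every measured member. For all 7 genes, each of the 3 delaminating arrays lay above each of the other 6 arrays, a pattern held by 6.15% of all genes tested. As the genes were chosen with results of these data known, that share is given for scale only. The size of the difference was uneven. It was widest for the formin gene dia and narrowest for the profilin gene chic. Anterior replicate 3 had the lowest value of all arrays for 6 of the 7 genes, and delaminating replicate 2 the highest for 6 of the 7. These are the arrays described above, and the part of their RNA composition in the members' values was not tested.

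**Figure D1:**
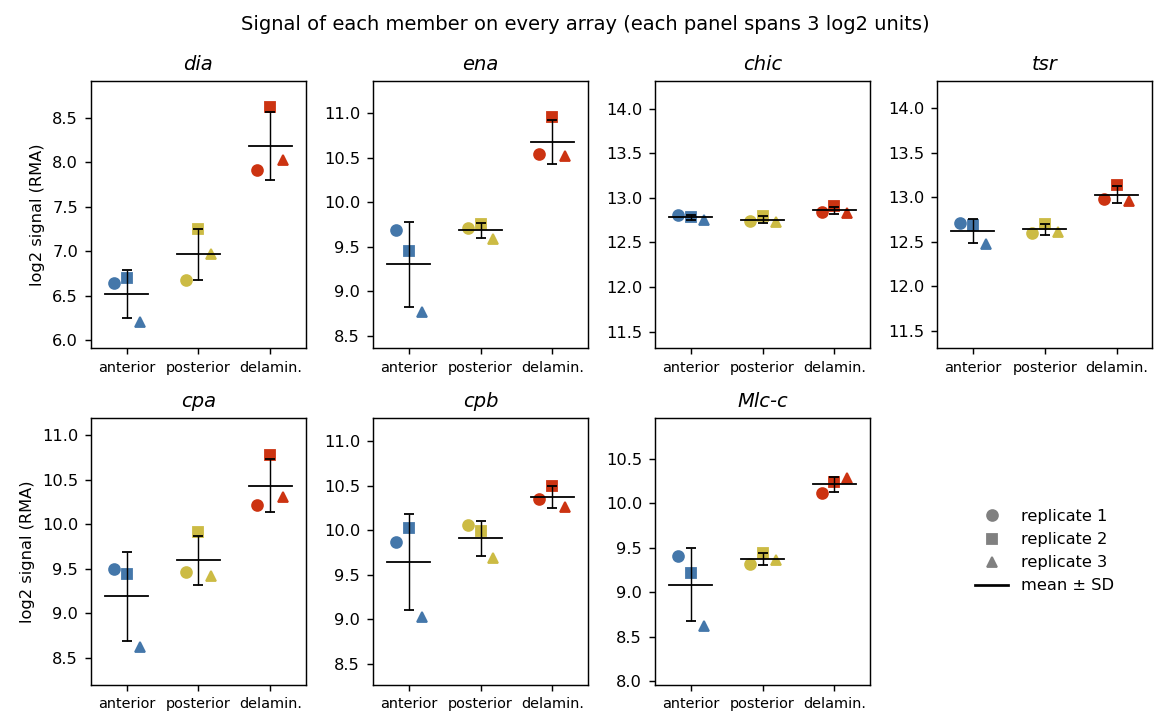
Log2 signal (vertical axis, each panel spanning 3 log2 units) of the 7 measured genes on every array, by population (horizontal axis), with replicate number as the marker shape and black bars for the mean ± SD of 3 arrays. In each panel all 3 delaminating points lie above the other 6, and the gap is wide for dia, ena, cpa and Mlc-c and narrow for chic.

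The filament elongators come first. dia encodes Diaphanous, the formin that nucleates and elongates unbranched filaments. Its log2 signals were 6.65, 6.70 and 6.21 in anterior replicates 1 to 3, 6.68, 7.25 and 6.97 in posterior replicates, and 7.91, 8.62 and 8.03 in delaminating replicates. All delaminating values lay apart from the rest, while posterior replicate 1 lay within the anterior range. The anterior replicate 3 value was below that array's lower quartile of 6.36, so it was not shown to be above background. The mean of anterior cells was 6.52 ± 0.27, that of posterior cells 6.97 ± 0.28 and that of delaminating cells 8.18 ± 0.38 (SD, n = 3 arrays each).

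Delaminating cells exceeded posterior cells in dia by 1.22 ± 0.24 (log2 difference ± SE), or 2.33-fold, with a 95% interval of the log2 difference from 0.68 to 1.76. In limma's moderated test the Benjamini-Hochberg adjusted p over all genes was 0.0581, which missed the threshold of 0.05. Against anterior cells dia rose 3.17-fold in delaminating cells (log2 difference 1.67, limma adjusted p = 0.005). Posterior and anterior cells differed by 0.45 (limma adjusted p = 0.563).

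ena encodes Enabled, which binds barbed ends, keeps capping protein off and feeds profilin-bound monomers to them. Log2 signals of ena were 9.69, 9.45 and 8.77 in anterior replicates, 9.71, 9.75 and 9.59 in posterior replicates, and 10.54, 10.96 and 10.52 in delaminating replicates. The posterior arrays lay within 0.16 of each other, and the lowest delaminating array was above all of them. The mean was 10.67 ± 0.25 in delaminating against 9.69 ± 0.08 in posterior cells, a 1.98-fold difference with a 95% interval of 1.36-fold to 2.89-fold (limma adjusted p = 0.129). Against anterior cells, with a mean of 9.30 ± 0.48, ena rose 2.58-fold (log2 difference 1.37, limma adjusted p = 0.0139). Without delaminating replicate 2 ena was no longer called against anterior cells.

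chic encodes the fly's profilin, which binds actin monomers and hands them to formins and Enabled. Its probe set was brighter than those of 99.5% of genes, and its signals spanned only 0.18 log2 units over the 9 arrays, from 12.73 to 12.91. Delaminating values were 12.84, 12.91 and 12.83, posterior values 12.74, 12.80 and 12.73, and anterior values 12.80, 12.78 and 12.76. Delaminating values were apart from both other groups, while posterior and anterior values overlapped. Yet the difference between delaminating and posterior cells was 0.10 ± 0.14 (log2 ± SE), with a 95% interval from 0.866-fold to 1.33-fold (limma adjusted p = 0.931). The interval of dia lay wholly above this one.

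tsr encodes cofilin, which severs and depolymerises filaments. Signals of tsr were 12.71, 12.69 and 12.47 in anterior, 12.60, 12.70 and 12.61 in posterior and 12.98, 13.14 and 12.96 in delaminating replicates. Posterior values lay inside the anterior range, and delaminating values were apart from both. The difference from posterior cells was 0.39 (1.31-fold, 95% interval 1.04-fold to 1.66-fold, limma adjusted p = 0.403) and from anterior cells 0.40 (1.32-fold, limma adjusted p = 0.213). Like chic, tsr was among the brightest genes, above 99.5% of them.

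cpa and cpb encode the alpha and beta subunits of capping protein, which work as a heterodimer that blocks barbed ends. cpa had log2 signals of 9.50, 9.44 and 8.62 in anterior, 9.46, 9.91 and 9.41 in posterior and 10.21, 10.77 and 10.31 in delaminating replicates. Posterior replicates 1 and 3 lay within the anterior range, and the lowest delaminating value was above the highest posterior one. Against posterior cells cpa differed 1.79-fold (log2 difference 0.84, 95% interval 0.23 to 1.45, limma adjusted p = 0.286), and against anterior cells it rose 2.37-fold (log2 difference 1.24, limma adjusted p = 0.0349). Without delaminating replicate 2 the latter log2 difference was 1.07 and was not called (limma adjusted p = 0.119).

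The beta subunit gene cpb had 9.87, 10.03 and 9.03 in anterior, 10.06, 9.99 and 9.69 in posterior and 10.36, 10.50 and 10.26 in delaminating replicates. Anterior and posterior values overlapped, with anterior replicate 3 alone below 9.5. The delaminating mean exceeded the posterior mean by 0.46 (95% interval -0.11 to 1.03, limma adjusted p = 0.627) and the anterior mean by 0.73 (95% interval 0.16 to 1.30, limma adjusted p = 0.181). The intervals of the differences of cpa and cpb overlapped in both comparisons. Overlap is not a test, since both genes were measured on the same arrays, and a difference between the subunits was not tested. Without anterior replicate 3 the delaminating to anterior difference of cpb was 0.42.

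Mlc-c encodes the essential light chain of non-muscle myosin II. Its signals were 9.41, 9.22 and 8.62 in anterior, 9.31, 9.44 and 9.36 in posterior and 10.11, 10.23 and 10.28 in delaminating replicates. Posterior and delaminating replicates were each close together, with an SD of 0.06 in posterior and 0.09 in delaminating cells, and the means differed by 0.84 (95% interval 0.37 to 1.30). The fold was 1.79 (limma adjusted p = 0.132). Against anterior cells Mlc-c rose 2.18-fold (log2 difference 1.13, limma adjusted p = 0.0168). Its signal on delaminating 2 lay between those of the other delaminating arrays, and without that array its difference from posterior cells was 0.83. Without that array Mlc-c was no longer called against anterior cells.

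Delaminating cells were compared with posterior cells to ask which of these genes mark cells that activate the reporter within the same transgenic compartment. limma called 0 of the 7 genes at an adjusted p under 0.05, where 0.801% of all genes were called. At an unadjusted p under 0.05 there were 5 of 7 higher (dia, ena, cpa, tsr and Mlc-c), against 5.31% of all genes. All 7 were apart in the higher direction, against 10.7% of all genes. The median log2 difference of the members was 0.84, and that of all genes -0.003. dia exceeded 98.8% of all genes in its difference, ena 98.2%, Mlc-c and cpa 97.3% each, cpb 91.7%, tsr 89.3% and chic 66.9%.

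Markers of other cell types also differed between these populations. Of 15 hemocyte markers 13 lay above 0 in delaminating minus posterior, with a median of 0.81, and 5 had an unadjusted p under 0.05, but limma called 0. Muscle precursor markers ran lower in delaminating cells for 5 of 6 genes, with a median of -0.67. Of these Him, a gene of muscle progenitors, fell by 1.95 (limma adjusted p = 0.0381), and hbs, which encodes a myoblast adhesion protein, fell by 1.27 (limma adjusted p = 0.0465). Their log2 sums were 11.21 to 11.41 on posterior and 9.99 to 11.15 on delaminating arrays. The log2 sum of 5 glial markers was 11.02 to 11.20 on posterior and 11.58 to 11.64 on delaminating arrays. Their median difference was only 0.12, with 4 of 5 above 0 and a range from -0.24 to 2.13, the latter for moody. Among them moody, a receptor gene of surface glia, was 4.37-fold higher in delaminating cells (limma adjusted p = 0.0576). The defining glial factor gene repo lay between 4.98 and 5.75 on all 9 arrays, below their lower quartiles. The part of these lists in the members' values was not tested. Neuron (3 of 4 measured) and fat body (4 of 5 measured) markers had medians of 0.13 each in this comparison, and limma called 0 of either list in any of the 3 comparisons.

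The number of members called moved with the arrays that set the shared spread. Calls over all genes also moved between such fits, and their totals or ranges are given with the alternatives below. The member counts here stand without the share of all genes called in the same fit. Leaving out anterior replicate 3, which enters only through the shared spread, gave 3 called members, with limma adjusted p of 0.0248 for dia, 0.0168 for ena and 0.013 for Mlc-c. Without both that array and delaminating 2 the same 3 genes were called, with limma adjusted p of 0.0344 for dia, 0.0242 for ena and 0.025 for Mlc-c. Without delaminating 2 alone 0 members were called and the members' median was 0.67. There the share of all genes apart with delaminating higher was 18.3%, and the order of the remaining member values follows from that of the full set.

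**Figure D2:**
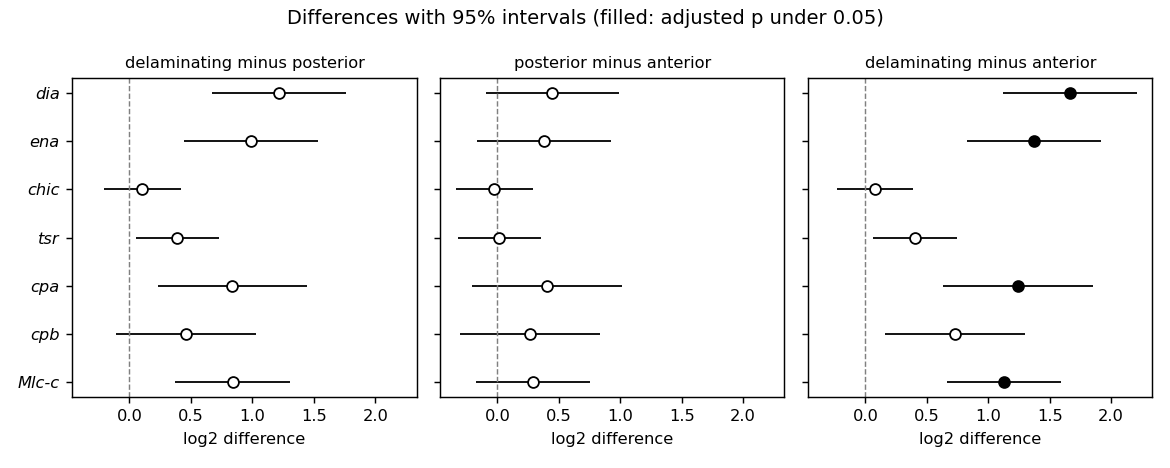
Log2 difference of group means (horizontal axis) with 95% intervals from limma for the 7 genes in 3 comparisons, filled where the adjusted p was under 0.05. The intervals of dia, ena, tsr, cpa and Mlc-c lie above 0 in delaminating minus posterior, all 7 include 0 in posterior minus anterior, and dia, ena, cpa and Mlc-c are filled in delaminating minus anterior.

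Posterior and anterior cells were compared next, a contrast between cells inside and outside the driver domain in which the transgenes and compartment identity cannot be told apart. limma called 0 of the 7 members, where 0.576% of all genes were called, and 0 had an unadjusted p under 0.05, where 9.6% of all genes had. None of the 7 had groups apart, against 11.9% of all genes apart with posterior higher and 6.47% with posterior lower. Differences ran from -0.03 for chic to 0.45 for dia, with a median of 0.29 against 0.09 for all genes. Without anterior replicate 3 the members' median was 0.06, cpb turned to -0.04 and tsr to -0.06. Muscle precursor markers, of mesodermal cells beneath the disc epithelium, were lower in posterior than in anterior cells for all 6 measured genes. The log2 of their summed signal was 13.57 to 13.91 on anterior and 11.21 to 11.41 on posterior arrays, and vkg, a collagen IV gene among the hemocyte markers, fell by 2.72 (limma adjusted p = 0.0243). The part of these markers in the members' values was not tested.

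Delaminating cells were then set against anterior cells. Of the 7 members 4 were called higher (dia, ena, cpa and Mlc-c), where 2.4% of all genes were called higher and 3.82% in either direction, and 6 of 7 had an unadjusted p under 0.05 in the higher direction, against 10.8%. The exception was chic. All 7 were apart, against 13.2% of all genes apart in that direction. The members' median difference was 1.13, and that of all genes 0.05. Without anterior replicate 3 the same 4 were called and the median was 0.89. Without delaminating 2 only dia was called (median 1.07), and without both dia, ena and Mlc-c were called (median 0.79). Calls over all genes also moved with the array left out, in a range given with the alternatives below. This contrast shares its delaminating arrays with the first and its anterior arrays with the second, so the comparisons are not independent of each other. In anterior cells the muscle precursor sum exceeded that of delaminating cells, at 9.99 to 11.15. Of 4 tracheal markers 3 were apart and higher in delaminating cells and 2 (Gasp and serp) were called, with log2 sums of 12.75 to 13.06 on anterior and 13.33 to 13.84 on delaminating arrays. Posterior cells shared this, with sums of 13.52 to 13.56. In posterior against anterior cells 3 of the 4 were apart and higher (median 0.66, 0 called). In delaminating against posterior cells the tracheal median was 0.11. The glial sum was 10.68 to 11.02 on anterior and 11.58 to 11.64 on delaminating arrays, and moody rose 10.8-fold (limma adjusted p = 0.0021). The median difference of the 5 glial markers was 0.43, with 4 above 0. Among hemocyte markers vkg was the 1 called, 3.74-fold lower in delaminating cells (limma adjusted p = 0.0421), while 13 of 15 lay above 0. The part of these lists in the result was not tested.

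**Figure D3:**
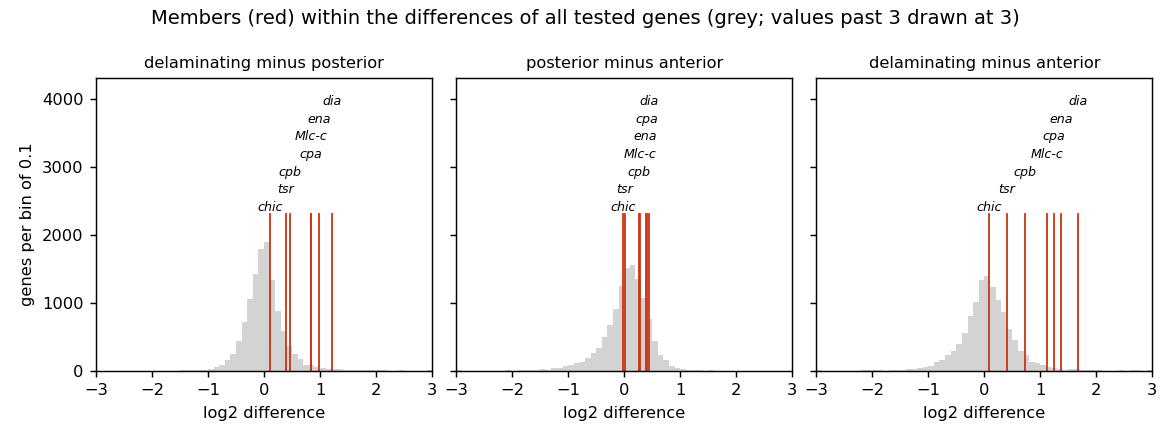
Histogram of log2 differences of all 11982 genes (grey, genes per bin of 0.1) with the 7 members as red lines. In both comparisons of delaminating cells dia, ena, cpa and Mlc-c lie in the upper tail and chic near the centre, while in posterior minus anterior all 7 lie within the body of the histogram.

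Other genes of the actin and myosin machinery were read from 5 lists holding 54 genes, of which 39 were measured. In delaminating against posterior cells 1 of the 39 was called higher and 0 lower, and 14 were apart higher and 6 apart lower, with a median difference of 0.12. Over all genes 10.7% were apart higher and 11.5% apart lower. At an unadjusted limma p under 0.05 there were 10 of the 39 higher and 0 lower, against 5.31% of all genes higher. The members and lists were chosen with results of these data known, and no test was made between them.

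The nearest in function are the other genes of monomers and filament ends, of which 9 of 12 were measured. Among these 8 of 9 differences were above 0, with a median of 0.36, and 0 were called in delaminating against posterior cells. cib, which encodes a thymosin repeat protein that binds monomers, differed by 0.64 (limma adjusted p = 0.123), and another probe set of cib by 0.67. flr, the fly Aip1 that helps cofilin disassemble filaments, differed by 0.63 (limma adjusted p = 0.134). Both were called without anterior replicate 3, and neither without delaminating 2. Against anterior cells GMF, a relative of cofilin that removes branches in other species, had a difference of 0.84 (limma adjusted p = 0.0535) and flr 0.63 (0.06). Between posterior and anterior cells twf, which encodes the monomer-binding twinfilin, had 0.86 (limma adjusted p = 0.496) and ssh, the phosphatase that activates cofilin, 0.35 (0.529). The value of twf was 0.37 without anterior replicate 3.

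Other formins and the nucleator gene spir formed a list of 6. Of 5 measured genes, 2 lay above 0 in delaminating against posterior cells, the median was -0.14, and limma called 0 in any comparison. spir, which nucleates filaments together with the formin Cappuccino, differed by 0.47 (limma adjusted p = 0.413), and its other probe sets by 0.36 and 0.10. The formin gene form3 differed by -0.27 (limma adjusted p = 0.633), and its other probe set by -0.67. DAAM, a formin gene of planar polarity and tracheal cuticle, had 0.56 in posterior against anterior cells (limma adjusted p = 0.563) and 0.63 in delaminating against anterior cells (0.351). Without anterior replicate 3 these values of DAAM were 0.31 and 0.39, and the second was 0.31 without delaminating 2 and 0.06 without both. spir had -0.28 in posterior against anterior cells (limma adjusted p = 0.583) and 0.19 in delaminating against anterior cells (0.649). Its other probe sets had -0.55 and 0.08 in the former comparison, and -0.18 and 0.18 in the latter.

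Actins, bundlers and cross-linkers had 16 of 20 genes measured, with a median of 0.13 in delaminating against posterior cells, 8 apart higher and 3 apart lower. Their differences ran from -0.33 to 1.93. At an unadjusted limma p under 0.05 there were 5 of 16 higher and 0 lower, against 5.31% of all genes higher. Act87E, a muscle actin gene, was the 1 called. Its log2 signals were 8.91, 9.60 and 8.60 in anterior, 6.42, 6.67 and 6.94 in posterior and 8.67, 8.46 and 8.70 in delaminating replicates. Posterior cells were thus low, and the other populations overlapped. It rose 3.82-fold in delaminating against posterior cells (limma adjusted p = 0.0107) and was 5.13-fold lower in posterior than anterior cells (limma adjusted p = 0.00189). Actin genes are nearly identical in coding sequence, and this probe set, like that of dia, may match more than 1 of them, so the gene measured is uncertain. f, which encodes the filament bundler Forked, rose 4.18-fold in delaminating against anterior cells (limma adjusted p = 0.0154). Its other probe set differed by 0.04. Without delaminating 2 the difference of f from anterior cells was 1.75, against 2.06 with it, and was not called (limma adjusted p = 0.0516). In delaminating against posterior cells f differed by 1.30 (limma adjusted p = 0.218), and its other probe set by 0.03.

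Of the other myosin genes 4 of 10 were measured, and 0 were called. Mlc2, the regulatory light chain gene of muscle myosin, differed by 0.81 in delaminating against posterior cells (limma adjusted p = 0.309), and Myo95E, an unconventional myosin gene, by -0.33 (0.761). Another probe set of Myo95E differed by -0.13. Myo10A, another unconventional myosin gene, differed by 1.03 in posterior against anterior cells (limma adjusted p = 0.424) and by 1.10 in delaminating against anterior cells (0.158). Its other probe set differed by 0.48 and 0.47. Without anterior replicate 3 the differences of the main probe set of Myo10A were 0.52 and 0.58. Mlc2 had -0.36 in posterior against anterior cells (limma adjusted p = 0.605) and 0.45 in delaminating against anterior cells (0.455), which became -0.07 and 0.73 without anterior replicate 3. Of 5 measured genes of the cytokinetic ring limma called 0, and Septin2 and Septin5, septin filament genes, each differed by 0.18 in delaminating against posterior cells (limma adjusted p = 0.836 and 0.838). In posterior against anterior cells both differed by 0.21 (limma adjusted p = 0.614 and 0.609), and by 0.08 and 0.12 without anterior replicate 3. In delaminating against anterior cells they differed by 0.39 and 0.40 (limma adjusted p = 0.274 and 0.271). In delaminating against posterior cells the ring genes lay between -0.07 and 0.18, a narrow span beside that of the members.

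**Figure D4:**
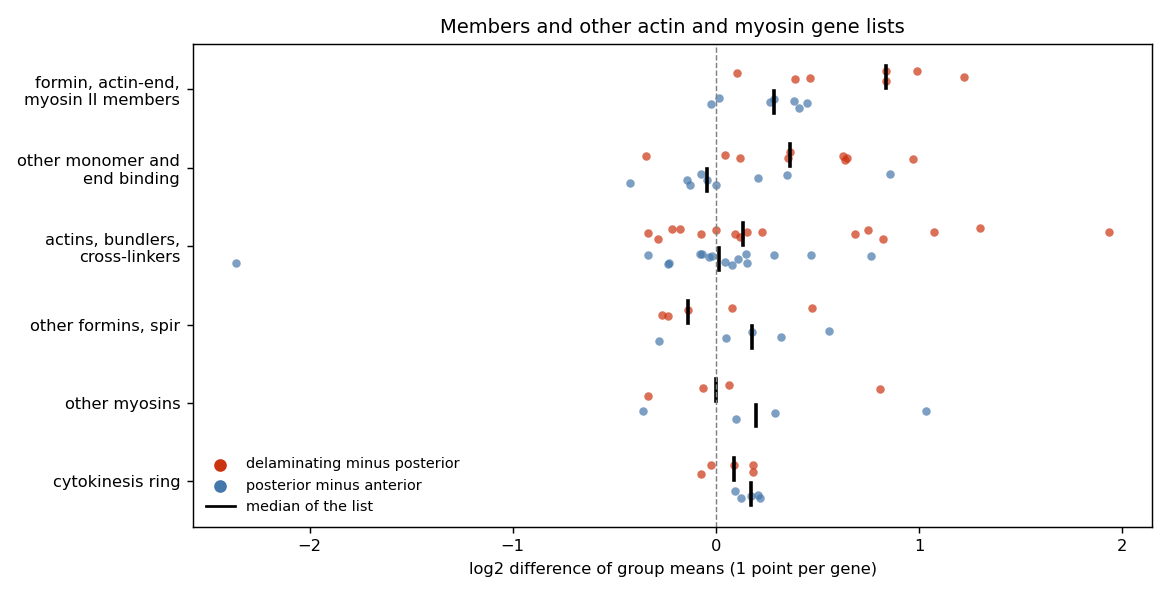
Log2 difference of group means (horizontal axis) for each measured gene of the members and of 5 other lists (rows), in delaminating minus posterior (red) and posterior minus anterior (blue), with black bars at list medians. The red median of the members is 0.84, that of other monomer and end-binding genes 0.36, and those of the remaining lists lie between -0.14 and 0.13.

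The members with the widest range of group means were dia, ena and cpa, with 1.67, 1.37 and 1.24 log2 units against a median of 0.37 over all genes. Likeness was measured as the root mean square difference over the 9 arrays after each gene was centred on its own mean. ena and cpa were near each other, at 0.13, and each stood among the 3 nearest genes of the other out of all genes tested. The other genes nearest to ena were AnxB11, an annexin gene, at 0.12 and S6k, the ribosomal protein S6 kinase gene, at 0.13. Beside ena, cpa had shrb, a gene of the ESCRT-III membrane-scission complex, at 0.14 and MRP, an ABC transporter gene, at 0.17. dia had Dgp-1 at 0.10, CG10098 at 0.17 and CG10068 at 0.18, and its nearest fellow member was ena at 0.23. These are likenesses over 9 arrays of 3 populations, and the arrays that stand apart enter all of them.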

How the data were processed

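The authors deposited log2 signals per probe set made with RMA, per the submitters' processing notes; its version is not given in the sources used here. Per the labels, RNA of trypsin-dissociated, sorted cells went through whole transcriptome amplification and biotin labelling. Values were used as deposited. Of 18952 probe sets, 183 controls were left out, and 13647 carried 1 gene symbol, 402 several and 4720 none. Symbols were updated through gene identifiers to the RefSeq table of GCF_000001215.4, which matched 11893 of 11982 genes. A gene's brightest probe set over the 9 arrays was used.

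limma 3.58.1 in R 4.3.3 fitted a mean per group to all 9 arrays. Tests were two-sided, adjusted over 11982 genes, and called at an adjusted p under 0.05. "Apart" means that the value ranges of the groups did not overlap. For arrays their number limits the precision.

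In simulations 100 genes of 11982 were shifted by a log2 difference of 1 and another 100 by 2. Of those shifted by 1, limma called 33% between delaminating and posterior, 48% between posterior and anterior, and 58% between delaminating and anterior cells. Of those shifted by 2 it called 84% to 86%. Each comparison was simulated with the same gene means and spreads and 1 random draw, so these shares do not rank the comparisons. The members and lists were chosen with earlier results of these data known. From the lists the text names genes called, or the 2 with the smallest p where none was, plus genes nearest to the 3 members of widest range. 1 of the pathway lists fixed for this work is not reported here. Hemocyte markers named as defining, and single marker genes, were picked with their values seen. Figures were drawn with matplotlib 3.10.9.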

Additional observations from a re-analysis of the deposited data

How the results depend on the processing

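Over 19 alternatives per comparison, the 7 members kept the sign of their difference in both comparisons of delaminating cells. In delaminating against posterior cells, 0 members were called with the replicate block, 1 without the dimmest 25% of genes or with arrays centred on their median, 2 with only the groups compared in the fit, 4 with array weights, and 3 without anterior 3 and delaminating 2 together (an alternative added after the data were seen). Leaving out 1 array gave 0 to 3. In delaminating against anterior cells 4 were called with the replicate block and 1 with only the groups compared, leaving out 1 array gave 1 to 4, and the members' median was 0.79 without both arrays. In posterior against anterior cells 0 were called in all 19. There tsr reversed to -0.045 with quantile normalization again, -0.014 with centred arrays, -0.057 with array weights and -0.062 without both arrays, and ranged from -0.062 to 0.057 leaving out 1 array (negative without anterior 3 or posterior 2). cpb reversed to -0.041 with array weights and -0.040 without both, and ranged from -0.040 (without anterior 3) to 0.46 leaving out 1 array.

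Over all genes, calls in delaminating against posterior cells numbered 96, with 185 for only the groups compared, 749 with array weights, 270 without both arrays, 66 with the replicate block and 17 to 281 leaving out 1 array. In posterior against anterior cells there were 69, with 129 over all probe sets, 427 with array weights and 35 to 88 leaving out 1 array. In delaminating against anterior cells there were 458, with 709 over all probe sets, 180 for only the groups compared, 1974 with array weights and 212 to 567 leaving out 1 array. Whether replicate numbers pair the arrays was not settled. Of 9 same-numbered pairs 5 had deviations correlated above 0.1, and the 9 ran from -0.12 to 0.18. Pairs of different number ran from -0.18 to 0.15. The block is therefore given as an alternative. It changed no member's call. The cause of these shifts was not tested.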
